A study of Mus musculus with 2 samples.

Results

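The cells described here are CD8 T cells from MC38 tumours in which at least 1 UMI of Pdcd1 or Havcr2 and at most 1 UMI of 4 division genes were counted. A UMI, or unique molecular identifier, stands for 1 captured mRNA molecule. A cell barcode was taken when it held 200 or more genes and at most 20% mitochondrial UMIs, at least 2 UMIs of Cd3d, Cd3e and Cd3g together, at least 1 of Cd8a and Cd8b1, none of Cd4, Foxp3 or Ncr1, at most 1 of Lyz2 and Cd68, at most 1 of Igf2bp2, Igf2bp3 and Hmga2, at most 1 of Mki67, Top2a, Ube2c and Birc5, and at least 1 of Pdcd1 and Havcr2. This rule found 211 of 15852 barcodes, 147 of 7952 in the control library and 64 of 7900 in the SHP099 library. The UMIs of these genes chose the cells, so their values below are a description, and cells under the limit on division genes are called non-dividing only in that sense.

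The tumours grew in the flank of C57BL/6 mice after injection of MC38, a mouse colon carcinoma line, so all tumours come from 1 cell line. From 5 days after the injection, at a mean tumour size of 100 mm3, 6 mice a group received SHP099 hydrochloride at 5 mg/kg into the stomach each day, or PBS, for 14 days. The control library is also labelled as untreated, and the labels do not give the number of tumours behind each library. Each group gave 1 library of droplet-based single-cell RNA from the whole dissociated tumour. No difference between control and SHP099 therefore has a replicate check, no p-value is given, and every interval below is a 95% interval that covers counting error only. Intervals are exact except those of drawn-down shares and of ratios of shares. Those of drawn-down shares are computed at an expected count and are approximate. Those of ratios of shares treat cell counts as Poisson, which makes them too wide where a share is large.

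PD-1, the product of Pdcd1 (chr1:94038305-94052553 in GRCm38), is an inhibitory receptor that T cells express after antigen recognition and keep under lasting stimulation. Its phosphorylated tail recruits SHP2, the phosphatase encoded by Ptpn11 and the target of SHP099, which dampens signals from the T cell receptor and CD28. TIM-3, the product of Havcr2 (chr11:46454935-46481255), appears on a smaller set of tumour T cells that are usually further along in exhaustion, whereas Il7r, Ccr7, Satb1 and related genes mark naive, memory and progenitor states.

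The libraries held 8245 and 8263 barcodes with 126218180 and 112901642 UMIs. The chosen cells were shallow, with a median of 2818 UMIs in the control library and 2802 in the SHP099 library, and with 475084 and 203619 UMIs in all. Sums over the SHP099 cells are thus the less precise. The libraries shared 100 barcode sequences, carried by 5 control and 2 SHP099 cells of the set. A doublet caller marked 3.32% and 2.51% of all barcodes, and 0 and 1 of these cells.

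The label held up against T cell markers that the rule did not use. Trac, the alpha chain constant gene, was at 735 and 781 CPM (UMIs scaled to a common total over the cells of a group) in control and SHP099, and the kinase gene Lck was at 356 and 354 CPM. Of the lists for other cell types, no granulocyte marker had a UMI, and the 4 B cell and 6 dendritic cell markers had at most 1 UMI in either library. Of 4 natural killer cell markers 3 were at 0, and the fourth, Eomes, which CD8 T cells also express, had 4 and 6 UMIs. Of 4 gamma-delta T cell markers Trdc, Tcrg-C1 and Trdv4 were at 0, and Tcrg-C2 had 38 UMIs in 15.6% of control cells and 11 in 7.81% of SHP099 cells. The 4 fibroblast markers summed to 37.9 and 78.6 CPM and the 3 endothelial markers had 9 UMIs and 1 UMI. The 12 phagocyte markers summed to 579 CPM (512 to 651) in control and 771 CPM (655 to 902) in SHP099, and their highest gene Apoe was at 149 and 196 CPM against 13802 and 13703 CPM in the phagocyte gate. The 6 tumour cell markers summed to 124 and 192 CPM, and of these only the matrix gene Col3a1 reached 20 CPM in either library. The rule itself caps Lyz2 and Cd68 of the phagocyte list and Igf2bp2, Igf2bp3 and Hmga2 of the tumour list, and sets Ncr1 to 0, so these sums are in part fixed by the selection. The part of such RNA in the results below was not tested.

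Non-dividing CD8 T cells with Pdcd1 or Havcr2 made up a smaller share of the SHP099 library. They were 1.85% (1.56 to 2.17) of barcodes in control and 0.810% (0.624 to 1.03) in SHP099, a ratio of 0.438 (0.322 to 0.592). CD8 T cells that met the same rule but held neither gene made up 1.62% (1.36 to 1.92) and 1.30% (1.07 to 1.58), a ratio of 0.804 (0.614 to 1.05). Within all non-dividing CD8 T cells the share with either gene was 53.3% (47.2 to 59.3) in control and 38.3% (30.9 to 46.2) in SHP099, and the ratio of these was 0.720 (0.528 to 0.971). The share with either gene was thus lower among CD8 T cells as well as among all barcodes.

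Because a share of cells with a UMI grows with depth, the expected share was also computed after drawing every CD8 T cell down to 1500 UMIs, which left out 19 control and 25 SHP099 cells. It was then 36.7% (30.8 to 42.9) and 28.2% (20.9 to 36.3), and the ratio of 0.768 had an interval of 0.517 to 1.12 that included no difference. At full depth Pdcd1 was detected in 48.6% and 34.7% of CD8 T cells, a ratio of 0.715 (0.516 to 0.980), while Havcr2 was detected in 14.1% and 13.8%, a ratio of 0.975 (0.556 to 1.67). Drawn down, the shares were 32.6% and 23.3% for Pdcd1 and 7.78% and 8.78% for Havcr2. As background, 2.18% and 1.76% of cells in the tumour gate held a UMI of either gene at median depths of 27754 and 24193 UMIs, and 0.123% and 0.110% did so when drawn down. The CD8 gate's own median depths were 2577.5 and 2199 UMIs.

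**Figure D1:**
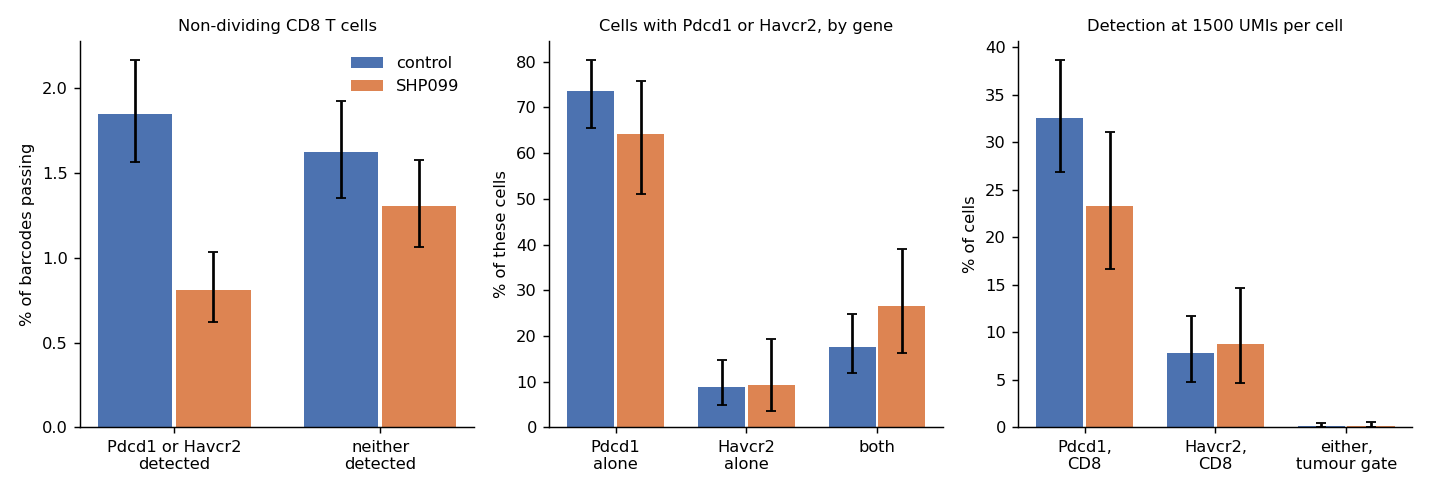
Shares of cells in the control (blue) and SHP099 (orange) libraries, in percent, with 95% intervals for counting error. Left, non-dividing CD8 T cells with or without Pdcd1 or Havcr2 among all barcodes that pass (1.85% and 0.810% with either gene). Middle, the chosen cells by the gene detected (73.5% and 64.1% with Pdcd1 alone). Right, expected detection in CD8 T cells at 1500 UMIs per cell (approximate intervals), beside the tumour gate (0.123% and 0.110%).

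Pdcd1 carried most of the membership. In control, 108 of the 147 cells held Pdcd1 alone, 13 Havcr2 alone and 26 both, or 73.5%, 8.84% and 17.7%. In SHP099, 41 of the 64 cells held Pdcd1 alone, 6 Havcr2 alone and 17 both, or 64.1%, 9.38% and 26.6%. Cells with Havcr2 were 26.5% (19.6 to 34.4) of the set in control and 35.9% (24.3 to 48.9) in SHP099, with intervals that overlapped. The level of Pdcd1 was 522 CPM in the control cells and 398 CPM in the SHP099 cells, and that of Havcr2 was 107 and 142 CPM.

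Membership often turned on a single molecule. Pdcd1 and Havcr2 together had exactly 1 UMI in 82 control cells (55.8%) and 35 SHP099 cells (54.7%), so just inside the limit. Just outside it lay 129 and 103 barcodes that met every other limit with 0 UMIs. The limit on division genes alone kept out 42 and 30 barcodes, and the limit on Cd8a and Cd8b1 alone kept out 11 and 12. Requiring 2 UMIs of Pdcd1 and Havcr2 left 65 and 29 cells, 0.817% and 0.367% of barcodes, so the lower share in SHP099 did not depend on the cells with 1 UMI.

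The barcodes kept out for division genes are the cycling counterpart of the set. Among all CD8 T cells with Pdcd1 or Havcr2 they were 42 of 189 in control, 22.2% (16.5 to 28.8), and 30 of 94 in SHP099, 31.9% (22.7 to 42.3). The ratio of 1.44 had an interval of 0.868 to 2.35. These cells were deeper, with medians of 7185 and 5093.5 UMIs, and the part of depth in their share was not tested.

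Gene levels were compared between libraries as log2 ratios of CPM with 0.5 CPM added, for genes at 20 CPM or more in either library. Of 4925 such genes, 17.4% were at least 1.5-fold higher and 18.7% at least 1.5-fold lower in SHP099, with a median of -0.01. These shares are the background for every count of list genes between libraries below, and at 50 CPM or more they were 12.2% and 11.1%.

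The clearest list was that of progenitor, naive and memory genes, of which 10 of 23 were measured, 7 lower by 1.5-fold or more and 2 higher, with a median of -1.07. With each cell counted alike the median was -0.64. Il7r, the receptor for the survival cytokine interleukin-7 (chr15:9505788-9530176), was at 101 CPM in control (48 UMIs in 34 cells) and 24.6 CPM in SHP099 (5 UMIs in 5 cells), a log2 ratio of -2.02 (interval -3.73 to -0.72). In the CD8 T cells with neither gene, Il7r was near level, at 104 and 97.2 CPM. Ccr7, which homes cells to lymph nodes, was at 80.0 and 24.6 CPM (log2 -1.68, -3.41 to -0.36). In the cells with neither gene Ccr7 was lower in SHP099 too, where it had no UMI. Satb1, a chromatin organiser of T cells, was at 82.1 and 19.6 CPM (log2 -2.04, -4.01 to -0.59), and Emb at 175 and 83.5 CPM (log2 -1.06, -1.91 to -0.30).

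Dapl1, found in naive and memory CD8 T cells, had 16 UMIs in 7 control cells and 0 in SHP099, where a count of 0 allows up to 3 UMIs. The summed level of the list, most of it Ly6c2, was 1646 CPM (1533 to 1766) in control and 1483 CPM (1321 to 1660) in SHP099. The chemokine gene Xcl1 was higher in SHP099, at 37.9 and 118 CPM, but 24 UMIs came from 6 cells. Klf2, a transcription factor of recirculating T cells, was at 42.1 and 78.6 CPM with an interval that included 0 (log2 0.89, -0.14 to 1.92). Among cells with 2 or more UMIs of Pdcd1 and Havcr2 the list's median was -0.19 and Ccr7 was at a log2 ratio of 0.10, so the low median of the list was not found in those 65 and 29 cells.

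**Figure D2:**
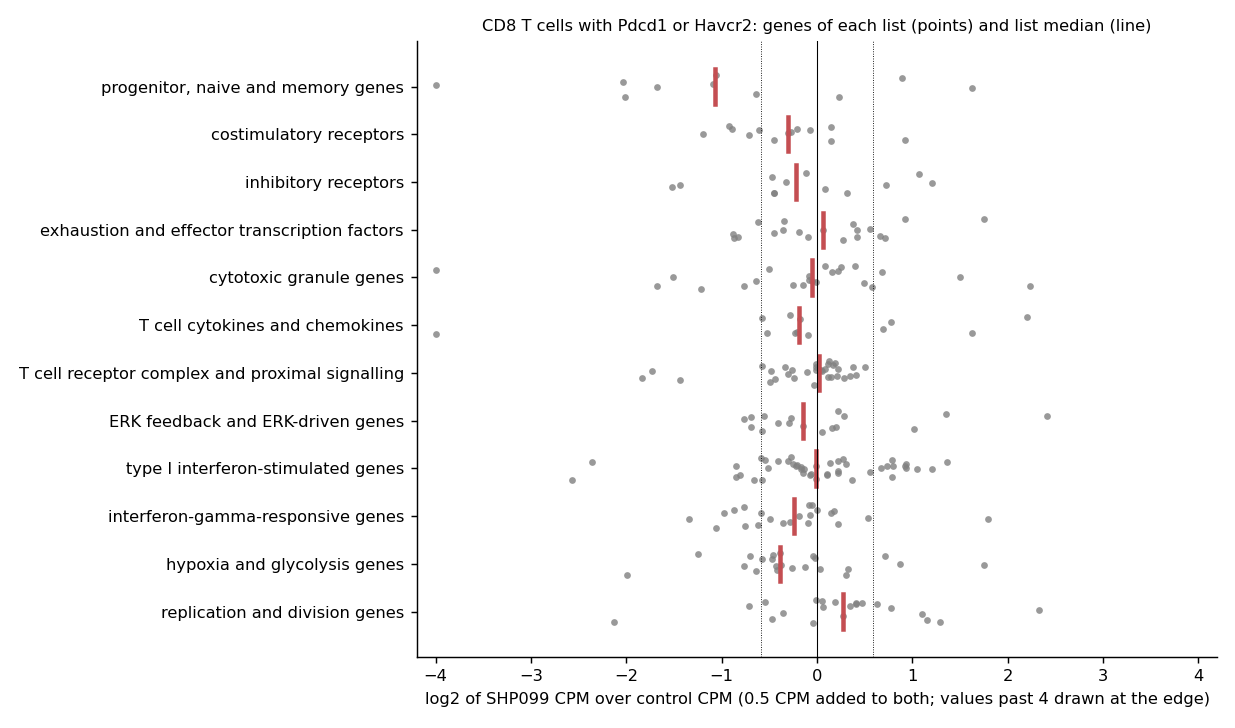
Log2 ratio of SHP099 CPM over control CPM in CD8 T cells with Pdcd1 or Havcr2 for each measured gene (grey points) of 12 lists, with the list's median (red line). Dotted lines mark 1.5-fold and values past 4 are drawn at the edge. The progenitor, naive and memory list has the lowest median (-1.07), and the medians of T cell receptor genes (0.02), type I interferon-stimulated genes (-0.01) and cytotoxic genes (-0.06) lie near 0.

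Receptors were mixed. Of 13 measured costimulatory receptors, 5 were lower by 1.5-fold and 1 higher (median -0.30). Cd28, the main costimulatory receptor of T cells and a substrate of the PD-1 and SHP2 pathway (chr1:60716800-60773359), was at 279.9 CPM in the control cells and 147 CPM in the SHP099 cells, a log2 ratio of -0.92 (interval -1.55 to -0.35). In the cells with neither gene it was at 309 and 376 CPM (log2 0.28, -0.14 to 0.71), with an interval that included 0. The TNF receptor family members Tnfrsf4 (OX40) and Tnfrsf18 (GITR) were also lower, Tnfrsf4 at 282 and 172 CPM and Tnfrsf18 at 368 and 241 CPM. The tetraspanin gene Cd82 was at 238 and 128 CPM (log2 -0.89, -1.57 to -0.27).

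Of 12 measured inhibitory receptors other than the rule genes, 2 were lower and 3 higher (median -0.22). Lag3, which binds MHC class II, was at 343 and 250.5 CPM (log2 -0.45, -0.94 to 0.01), and Ctla4, which competes with CD28 for its ligands, was at 215 and 157 CPM (log2 -0.45, -1.07 to 0.14). Both intervals included 0. Cd160 was lower, at 71.6 and 24.6 CPM (log2 -1.52, -3.25 to -0.18), on 34 and 5 UMIs. Klrc1, which encodes the inhibitory receptor NKG2A and shares 56.3% of the 50-base words in its last 500 bases with a near copy, was near level at 657 and 604 CPM.

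Transcription factors of exhaustion and effector states showed 4 of 19 genes higher and 4 lower (median 0.07). Tox, a regulator of exhaustion, did not differ beyond counting error, at 114 and 138 CPM (log2 0.27, -0.44 to 0.96). Nr4a1, an early gene of T cell receptor signalling, was higher in SHP099, at 90.5 and 172 CPM (log2 0.92, 0.24 to 1.60), and its relative Nr4a2 was at 427 and 569.7 CPM (log2 0.41, 0.07 to 0.75). Irf8 was lower, at 379 and 206 CPM (log2 -0.88, -1.40 to -0.39), as was Hif1a, the oxygen-sensing factor, at 333 and 187 CPM (log2 -0.83, -1.38 to -0.31). Hif1a was lower to a like extent in the cells with neither gene, at 326 and 194 CPM, whereas Irf8 was at 228 and 208 CPM there.

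Cytotoxic granule genes as a list were level between libraries, with 3 of 23 higher, 6 lower and a median of -0.06. Prf1, the pore-forming perforin, was at 181 and 192 CPM (log2 0.08, -0.50 to 0.64), and Nkg7, a granule membrane gene, was at 4031 and 3875 CPM. Gzmb, the main granzyme of these cells, was at 1126 and 1341 CPM (log2 0.25, 0.04 to 0.46), and at a log2 ratio of -0.07 once the highest cell of each library was left out. The highest SHP099 cell held 69 of 273 Gzmb UMIs and the highest control cell 27 of 535. The sign of the Gzmb ratio thus turned on 1 SHP099 cell.

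The largest differences among granzymes came from few cells. Gzmf (chr14:56205263-56211417) was at 324 CPM in control, 154 UMIs in 19 of 147 cells, and at 918 CPM in SHP099, 187 UMIs in 9 of 64 cells. A single SHP099 cell held 97 of those UMIs, or 51.9%. Without the highest cell of each library the log2 ratio was 0.92 in place of 1.5, and with mitochondrial UMIs limited to 10% it was 0.46. Gzmc, in the same granzyme cluster, was at 61.0 and 289.8 CPM, and 2 SHP099 cells held 27 and 22 of its 59 UMIs. Gzma had 47 UMIs in 3 control cells and 0 in SHP099. The share of 50-base words in the last 500 bases that also occur in another granzyme of the cluster was 7.10% for Gzmf and 0% for Gzmc.

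Chemokine genes were just as uneven. Ccl4 was at 1255 and 1085 CPM, but 1 control cell held 397 of 596 UMIs and another held 109. Ccl3 was at 366 and 324 CPM, with 142 of 174 control UMIs and 55 of 66 SHP099 UMIs in 1 cell each. Ccl5 was spread over more cells, 107 of 147 and 46 of 64, and was lower in SHP099 at 4639 and 3119 CPM (log2 -0.57, -0.70 to -0.44, and -0.74 without the highest cells). In the CD8 T cells with neither gene Ccl5 was higher in SHP099, at 4633 and 5727 CPM (log2 0.31, 0.20 to 0.41). Ifng, the main T cell interferon, was at 116 and 108 CPM (log2 -0.10, -0.88 to 0.64), a difference within counting error.

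**Figure D3:**
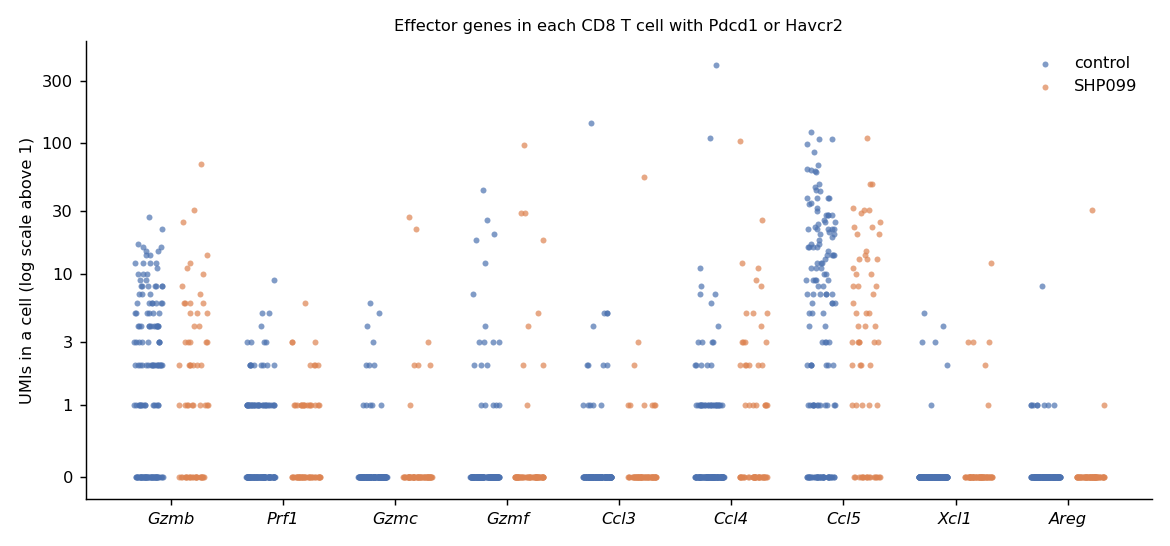
UMIs of 9 effector genes in each CD8 T cell with Pdcd1 or Havcr2 (1 point a cell, log scale above 1), in the control (blue, 147 cells) and SHP099 (orange, 64 cells) libraries. Gzmb and Ccl5 are spread over many cells, while Gzmf, Ccl3, Ccl4 and Areg have single cells far above the rest (397 UMIs of Ccl4 in a control cell, 97 of Gzmf and 31 of Areg in an SHP099 cell).

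T cell receptor genes were near level apart from 1 beta chain gene. None of 32 measured genes of the receptor complex and its proximal signalling was higher by 1.5-fold and 3, Trbc1, Plcg1 and Ubash3a, were lower (median 0.02), Plcg1 and Ubash3a on 2 SHP099 UMIs each. The log2 ratios of Trac, Cd3e, Cd3g, Lck, Lat and Ptprc lay between -0.04 and 0.12, each with an interval that included 0. A T cell uses either Trbc1 (chr6:41538218-41539881) or Trbc2 (chr6:41546730-41548352) as the constant part of its beta chain. Trbc2 was near level at 1212 and 1365 CPM (log2 0.17, -0.04 to 0.38), whereas Trbc1 was at 1225 CPM in the control cells and 344 CPM in the SHP099 cells (log2 -1.83, -2.21 to -1.47).

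The difference lay mainly in the number of cells that used each gene. In control, 65 cells held more Trbc1 and 75 more Trbc2. In SHP099, 7 cells held more Trbc1 and 52 more Trbc2. The median Trbc1 count in the cells with more Trbc1 was 8 UMIs in control and 4 in SHP099. Among cells with a majority the Trbc1 share was 46.4% (38.0 to 55.0) in control and 11.9% (4.91 to 22.9) in SHP099, and these intervals did not overlap. It was 31.6% (23.2 to 40.9) and 21.8% (13.7 to 32.0) in the CD8 T cells with neither gene, 45.0% (29.3 to 61.5) and 10.3% (2.19 to 27.4) in the dividing cells with either gene, and 27.3% (6.02 to 61.0) and 10.5% (1.30 to 33.1) in regulatory T cells. The lower Trbc1 share in SHP099 was thus found in each of these gates, with overlapping intervals in the neither-gene and regulatory gates. The genes are near copies, and 16.2% of 50-base words in the last 500 bases of Trbc1 and 20.2% of those of Trbc2 occur in the other.

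Summed levels of other genes also differed between cells with different beta chains, but not alike in the libraries. In control Ly6c2, a surface gene of memory and effector CD8 T cells, was at 494 CPM (405 to 596) in the 65 cells with more Trbc1 and at 1202 CPM (1067 to 1349) in the 75 with more Trbc2. Gzmf was at 206 CPM (150 to 275) and 419 CPM (341 to 509), Cd28 at 329 CPM (258 to 415) and 218 CPM (163 to 286), and Prf1 at 261 CPM (197 to 338) and 113 CPM (74.5 to 165). Il7r was at 96.1 and 105 CPM in these groups, with overlapping intervals. All these intervals leave out the spread between cells, and single control cells held 44, 26 and 20 of the 154 UMIs of Gzmf. In SHP099 only 7 cells held more Trbc1, and there Ly6c2 was the other way round, at 2327 CPM (1684 to 3134) with more Trbc1 and 887 CPM (752 to 1040) with more Trbc2. Prf1 was at 216 CPM (59.0 to 554) and 204 CPM (142 to 284). The number of clones behind either group is not known, and the part of the beta chain's makeup in the ratios between libraries was not tested.

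**Figure D4:**
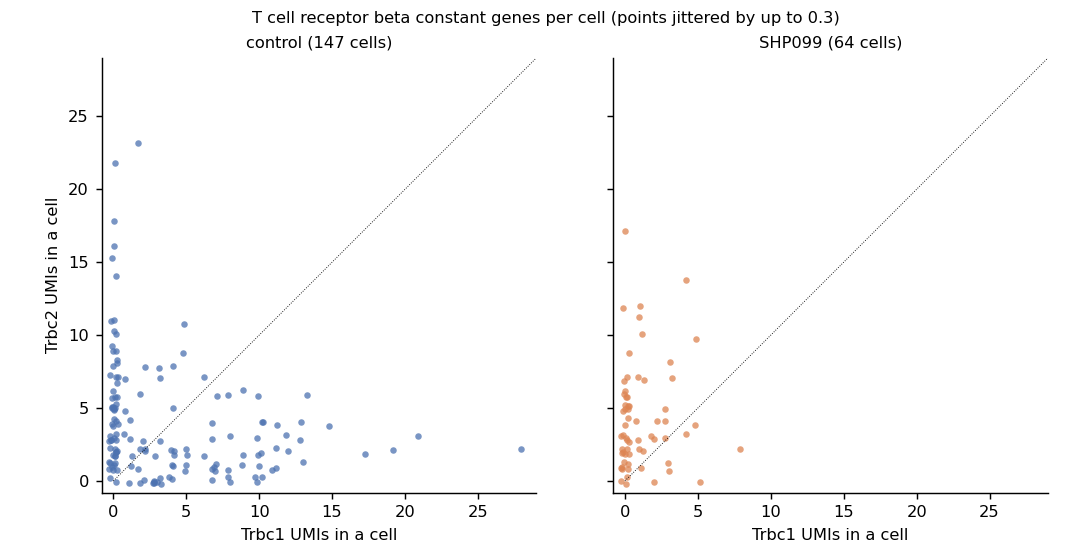
UMIs of Trbc1 (horizontal) and Trbc2 (vertical) in each CD8 T cell with Pdcd1 or Havcr2, jittered by up to 0.3, for control (147 cells, left) and SHP099 (64 cells, right). The dotted line marks equal counts, and 65 control cells but 7 SHP099 cells lie below it.

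The SHP2 pathway itself was measured on few molecules. Ptpn11, which encodes SHP2, had 23 UMIs in control (48.4 CPM) and 6 in SHP099 (29.5 CPM), a log2 ratio of -0.71 (interval -2.30 to 0.62). SHP099 acts on the protein, so this transcript does not check the treatment. Of 13 measured genes for SHP2, SHP1, adaptors and the RAS to ERK chain, 1 was higher and 4 lower (median -0.22), and no interval among these lay off 0.

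Genes that ERK signalling drives or that feed back on it were 3 higher and 3 lower of 17 (median -0.15). Dusp2, a nuclear phosphatase of MAP kinases, was lower in SHP099, at 524 and 324 CPM (log2 -0.69, -1.11 to -0.30), and was at 574 and 649.6 CPM in the cells with neither gene. Dusp10 was higher, at 40.0 and 103 CPM (log2 1.36, 0.40 to 2.34). Dusp6, a common readout of ERK activity, had 10 and 5 UMIs and could not be compared at this depth. Dusp5, Fos, Junb and Ier2 had intervals that included 0.

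Type I interferon-stimulated genes had other ratios in the set than in the CD8 T cells with neither gene. Of 45 such genes measured in both CD8 gates, 27 were at least 1.5-fold higher in SHP099 in the cells with neither gene (median 0.61), against 11 in the cells with Pdcd1 or Havcr2 (median -0.01). None of the 45 was lower by 1.5-fold in the former, and 7 were in the latter. Of all 4463 genes measured in both gates, 863 were higher and 704 lower in the former, and 667 higher and 776 lower in the latter. Of the 58 list genes measured in the cells with neither gene, 36 were higher and 2 lower. Of all 5212 genes measured there, 22.2% were higher and 18.4% lower. The ratio was the lower one in the cells with Pdcd1 or Havcr2 for 34 of the 45 genes, or 75.6%, against 53.8% of all genes measured in both. Both gates use the same libraries, and the difference between them has no replicate check.

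Irf7, the interferon-induced regulator of the interferon response, was at 83.7 CPM in control and 208 in SHP099 in the cells with neither gene (log2 1.31, 0.61 to 2.03). In the cells with Pdcd1 or Havcr2 it was at 77.9 and 83.5 CPM (log2 0.10, -0.82 to 0.96). Trim30a was at 104 and 256 CPM in the former and 114 and 113 CPM in the latter. Ifi206, a DNA sensor family gene, was at 115 and 243 CPM against 96.8 and 78.6 CPM. In each of these 3 genes the control levels of the gates were close and the SHP099 level of the cells with Pdcd1 or Havcr2 was the lower.

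Exceptions were Bst2, which encodes the virus-tethering protein tetherin, and the exonuclease gene Isg20. Bst2 was higher in SHP099 in both gates, at 250.5 and 432 CPM in the cells with Pdcd1 or Havcr2 (log2 0.79, 0.37 to 1.20) and 476 and 676 CPM in the others (log2 0.51, 0.18 to 0.83). Isg20 was at 145 and 231 CPM (log2 0.67, 0.10 to 1.22) and 196 and 287 CPM (log2 0.55, 0.04 to 1.06). The most abundant gene of the list, Ifi27l2a, was at 3277 and 2971 CPM (log2 -0.14, -0.28 to -0.01) in the cells with Pdcd1 or Havcr2 and 3012 and 4158 CPM (log2 0.47, 0.34 to 0.59) in the others, opposite in direction.

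**Figure D5:**
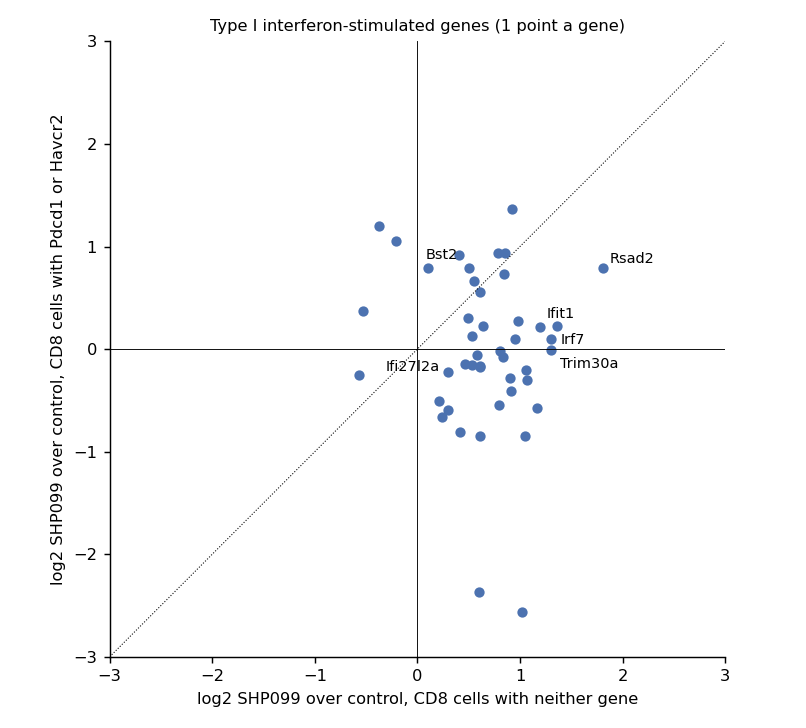
Log2 ratio of SHP099 over control for 45 type I interferon-stimulated genes (1 point a gene) in CD8 T cells with neither Pdcd1 nor Havcr2 (horizontal) and with either (vertical), with 0.5 CPM added. The dotted line marks equal ratios, and 34 of the 45 genes lie below it.

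Set against the neither-gene cells within each library, the interferon-stimulated genes were lower in the cells with Pdcd1 or Havcr2. In control, 15 of 50 were at least 1.5-fold lower and 1 higher (median -0.28), where 15.5% of all measured genes were lower and 15.7% higher. In SHP099, 39 of 55 were lower and 1 higher (median -1.05), where 21.6% were lower and 19.7% higher. Lower in both libraries by 1.5-fold or more were 8 of 47, against 3.64% of all 4449 genes, and 0 were higher, against 3.53%. The 8 were Ifit1, Ifit3, Ifih1, Ddx60, Bst2, Rtp4, Slfn1 and Slfn5. Ifit1, an RNA-binding antiviral protein, was at 21.05 CPM with and 69.2 CPM without the genes in control, and at 24.6 and 159 CPM in SHP099. With each cell counted alike the list's median was -0.26 in control and -1.13 in SHP099. With cells under 1500 UMIs also left out it was -0.10 and -0.95. The difference in control was thus mostly lost without the shallow cells, and that in SHP099 was not. Neither setting equalises depth between the gates, and the part of depth was not tested.

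The promoters of 3 of these genes are shown because they hold the letters of the interferon-stimulated response element, searched as GAAA, any 2 bases and GAAA again on both strands, which a transcription factor complex activated by type I interferon binds. Each runs 5′ to 3′ on the gene's strand from 250 bases before to 50 bases after an annotated start (RefSeq, GRCm38.p6), with matches in capitals. The regions are chr19:34640639-34640938 on the plus strand for Ifit1, chr7:104446076-104446375 on the minus strand for Trim30a and chr1:173491269-173491568 on the minus strand for Ifi206. Trim30a has 2 promoter entries, and the one with more matches is shown. That entry is at an alternative start inside the gene (chr7:104409025-104465193 in GENCODE), and its match lies after this start.
Ifit1: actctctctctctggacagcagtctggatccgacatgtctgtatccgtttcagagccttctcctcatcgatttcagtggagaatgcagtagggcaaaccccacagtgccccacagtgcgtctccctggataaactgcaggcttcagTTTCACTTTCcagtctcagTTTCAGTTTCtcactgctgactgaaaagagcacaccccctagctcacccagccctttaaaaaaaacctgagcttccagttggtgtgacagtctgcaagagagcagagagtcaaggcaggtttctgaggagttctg
Trim30a: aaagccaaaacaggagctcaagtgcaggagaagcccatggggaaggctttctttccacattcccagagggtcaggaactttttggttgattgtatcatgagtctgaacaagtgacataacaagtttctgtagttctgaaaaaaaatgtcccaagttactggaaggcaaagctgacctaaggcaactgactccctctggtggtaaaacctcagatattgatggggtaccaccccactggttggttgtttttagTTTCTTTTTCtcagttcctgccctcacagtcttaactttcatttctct
Ifi206: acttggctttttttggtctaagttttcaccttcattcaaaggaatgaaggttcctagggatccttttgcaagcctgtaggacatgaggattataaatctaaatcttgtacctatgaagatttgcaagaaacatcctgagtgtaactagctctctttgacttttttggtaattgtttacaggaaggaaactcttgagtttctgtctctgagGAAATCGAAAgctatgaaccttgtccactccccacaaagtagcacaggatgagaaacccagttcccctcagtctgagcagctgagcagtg
Of the 65 list genes 53 had a promoter in the table, and 26 of these, 49.1%, held the letters, against 3.99% of 27025 genes. The same search matched 10 of 21 promoters, 47.6%, in the interferon-gamma-responsive list, 5 of 22, 22.7%, in the cytotoxic list and 0 of 19 in the progenitor list. A match is a description of the sequence and shows no binding.

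Interferon-gamma-responsive genes were 1 higher and 7 lower of 22 in SHP099 (median -0.24). Tap2, a peptide transporter for MHC class I, was at 75.8 and 29.5 CPM (log2 -1.35, -2.90 to -0.10), while Cxcl10, a chemokine that draws T cells, was higher at 29.5 and 103 CPM (log2 1.79, 0.76 to 2.90). Cytokine receptors were 1 higher and 6 lower of 16 (median -0.24). Besides Il7r, these included Il21r at 162 and 88.4 CPM (log2 -0.87, -1.70 to -0.12) and Il12rb2 on 24 and 3 UMIs. Il2rb, the shared receptor chain for interleukins 2 and 15, was near level at 549 and 521 CPM.

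Hypoxia and glycolysis genes had a median of -0.38, with 3 higher and 5 lower of 22. Ldha was at 886 and 658 CPM (log2 -0.43, -0.72 to -0.15), Gapdh at 2088 and 1601 CPM (log2 -0.38, -0.57 to -0.20) and the mitophagy gene Bnip3 at 98.9 and 24.6 CPM (log2 -1.99, -3.70 to -0.69). Gapdh was lower to a like extent in the cells with neither gene, at 1835 and 1365 CPM. Replication genes went the other way, 6 higher and 2 lower of 21 (median 0.27), among them the chromatin remodeller Hells at 35.8 and 88.4 CPM (log2 1.29, 0.26 to 2.35) and Pclaf at 52.6 and 118 CPM (log2 1.16, 0.29 to 2.03). The rule caps only 4 division genes. The 34 other replication and division genes summed to 2778 and 3335 CPM in the set against 14245 and 14522 CPM in the dividing cells, but single cells of the set held up to 98 of these UMIs in control and 77 in SHP099.

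Compared with the neither-gene cells, the cells with Pdcd1 or Havcr2 held more of these granzymes in both libraries. Of 4449 genes measured in both, 3.53% were at least 1.5-fold higher and 3.64% lower in both, and of the 22 cytotoxic genes 3, Gzmc, Gzmd and Gzmf, were higher and 0 lower. Gzmd was found in only 8 control and 3 SHP099 cells with Pdcd1 or Havcr2, and had no UMI in the SHP099 neither-gene cells. Of the 50-base words in its last 500 bases, 20.6% occur in another granzyme of the cluster. Gzmf was at 324 against 37.5 CPM in control and 918 against 44.2 CPM in SHP099, and Gzmc at 61.0 against 17.3 and 289.8 against 17.7 CPM. Gzmb was at 1126 against 689 CPM (log2 0.71, 0.49 to 0.93) and 1341 against 1091 CPM (log2 0.30, 0.04 to 0.55). Nrgn, a calmodulin-binding gene, was at 160.0 against 49.0 and 108 against 17.7 CPM, and Spp1, which encodes osteopontin, at 183 against 63.5 and 314 against 61.9 CPM. Of 11 measured inhibitory receptors other than the rule genes, 3 were higher and 1 lower in control (median 0.28), against 15.7% and 15.5% of all genes. In SHP099 2 of 11 were higher and 2 lower (median -0.11), against 19.7% and 21.6%. In both libraries 1 of 10 was higher and 0 lower. The cells with either gene were deeper in both libraries (medians of 2818 against 2295 UMIs and 2802 against 1990). The cytotoxic list's medians were 0.27 and 0.12 from summed UMIs. They were 0.29 and 0.17 with cells under 1500 UMIs left out and each cell counted alike. This setting does not equalise depth, and the part of depth in these ratios was not tested.

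Lower in both libraries were Ly6c2, at 876 against 1618 CPM in control (log2 -0.89, -1.07 to -0.70) and 1026 against 1984 CPM in SHP099 (log2 -0.95, -1.19 to -0.71), and the heat shock gene Hspa1a at 40.0 against 112 and 14.7 against 66.3 CPM. Klf2 was at 42.1 against 80.8 and 78.6 against 199 CPM. The progenitor list had a median of -0.37 in control, with 3 higher and 5 lower of 13 (15.7% and 15.5% of all genes). In SHP099 1 was higher and 11 lower of 13 (19.7% and 21.6% of all genes), and in both libraries 1 was higher and 4 lower of 11. The SHP099 median was -1.49, or -1.34 with genes at 0 set at a floor of 3 UMIs. With cells under 1500 UMIs left out and each cell counted alike, the medians of the 2 libraries were -0.54 and -1.22. Il7r was level in control, 101 against 104 CPM, and lower in SHP099, 24.6 against 97.2 CPM (log2 -1.96, -3.74 to -0.55).

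Cells with Havcr2 differed from cells with Pdcd1 alone in the same way in both libraries for several effector genes. Of 4483 genes measured in both, 6.67% were at least 1.5-fold higher and 6.78% lower in both, and of 21 cytotoxic genes 3, Gzmb, Prf1 and Stx11, were higher and 0 lower. As a list, the cytotoxic genes were level in control, with a median of -0.03 and 6 higher and 4 lower of 23 (24.5% and 20.7% of all genes). In SHP099 their median was 0.35, with 10 higher and 3 lower of 21 (29.9% and 31% of all genes). Gzmb was at 1713 CPM with Havcr2 and 899 CPM with Pdcd1 alone in control (log2 0.93, 0.68 to 1.18), and at 1880.3 and 1040.1 CPM in SHP099 (log2 0.85, 0.50 to 1.21). Prf1 was at 324 and 126 CPM (log2 1.37, 0.73 to 2.01) and 316 and 122 CPM (log2 1.36, 0.38 to 2.39). Lag3 was at 483 and 289 CPM and at 343 and 199 CPM, log2 ratios of 0.74 and 0.79, of which the latter had an interval that reached -0.07. Tox was at 151 and 99.3 CPM and 178 and 115 CPM, with both intervals reaching below 0.

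Of the measured inhibitory receptors, 3 of 13 were higher and 1 lower with Havcr2 in control (24.5% and 20.7% of all genes), and 6 of 11 were higher and 0 lower in SHP099 (29.9% and 31% of all genes). Their median was -0.04 in control and 0.79 in SHP099. Lag3 and Cd160 were higher in both libraries. Id2, a factor of effector T cells, was at 1433 and 1071 CPM (log2 0.42, 0.16 to 0.68) and 1276 and 887 CPM (log2 0.52, 0.12 to 0.93). Il7r was lower with Havcr2 in control, at 30.2 and 128 CPM (log2 -2.07, -4.03 to -0.63), and had 1 and 4 UMIs in SHP099. The cytokine and chemokine list had medians of 1.34 in control (10 higher and 3 lower of 13) and 0.68 in SHP099 (7 higher and 5 lower of 14), and 3 of 11 genes were higher and 1 lower in both. Ccl5 and Ccl3 were higher with Havcr2 in control and lower in SHP099. Ccl5 was at 8427 and 3173 CPM in control and 2072 and 3701 CPM in SHP099, and Ccl3 at 1207 and 40.9 CPM and 68.6 and 467 CPM, where single cells held most UMIs. The Havcr2 groups are 39 and 23 cells with median depths of 3106 and 2852 UMIs, against 108 and 41 cells at 2713.5 and 2521 UMIs.

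Other genes were named by a rule on the size of the ratio between libraries, the level and the share of cells. The 10 lowest in SHP099 were Sult2b1, Tob1, Tmx1, Kdm7a, Adgre5, Igfbp7, Atxn10, Cdk17, Zfp131 and Ndfip1, and the 10 highest were Gps1, Gzmc, Ube2w, Trim34a, Ric1, Selenoi, Dcaf8, Mrps18a, Chmp3 and Cinp. Ndfip1, an activator of the ubiquitin ligase ITCH, had the most UMIs, 110 in 76 control cells and 11 in 11 SHP099 cells, or 232 and 54.0 CPM (log2 -2.09, -3.14 to -1.20). In the cells with neither gene Ndfip1 was at 162 and 102 CPM (log2 -0.67, -1.44 to 0.06). Tob1, a quiescence gene of T cells, had 24 and 1 UMIs, and Adgre5, the adhesion receptor CD97, had 26 and 2. Chmp3, a subunit of the membrane-scission complex ESCRT-III, had 14 and 21 UMIs (log2 1.79, 0.76 to 2.90). The other genes of the highest 10 apart from Gzmc rested on 5 to 11 control UMIs and 11 to 17 SHP099 UMIs.

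Over the neither-gene cells, where 0.944% of genes were at least 2-fold higher and 0.832% lower in both libraries, the rule took the largest ratios of one direction in both and gave Rras2, Ipcef1, Dennd1b, Stt3b, Slc39a1, St3gal6, Srpk1 and Slk, besides Hspa1a and Ly6c2, as lower. It gave Ccl3, Ccr7, Igfbp7, Cdc37l1, Bspry and Mmd, besides Gzmf, Gzmc, Nrgn and Spp1, as higher. Ccr7 was at 80.0 against 26.0 CPM in control, and in SHP099 had 5 UMIs in the cells with Pdcd1 or Havcr2 and 0 in the others. For cells with Havcr2 over Pdcd1 alone, where 2.3% of genes were at least 2-fold higher and 3.1% lower in both libraries, it gave Slc25a40, Gramd1a, Ern1, Dpf2 and Med27 as higher and Polk, Araf, Naa15, Ogfr and Glul as lower, all on at most 8 UMIs on the Havcr2 side.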

How the data were processed

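UMI count matrices were used as deposited by the authors: 1 matrix for each library, raw counts per gene and barcode, made with Cell Ranger on mm10 (GRCm38) per the submitters' processing notes, with software version 3.1.0 per the file headers. Tumours were dissociated mechanically with a kit and libraries made with 10x 3' chemistry, per the labels' protocols. The counts are UMIs, so PCR copies are collapsed, and no sample was left out. Barcodes found in both libraries were kept, and leaving them out was tried as an alternative.

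The members and the gene lists were chosen with earlier results of these data known. Cells were taken by the rule in the opening of the text, with no clustering. UMIs were summed over the cells of a group, scaled to CPM, and compared as log2 ratios with 0.5 CPM added, for genes at 20 CPM or more in either group. Ratio intervals are conditional 95% intervals for Poisson counts, exact for UMI sums and too wide for ratios of large shares. Share intervals are Clopper-Pearson, which is approximate at the expected counts of drawn-down shares. They cover counting error only. Detection after drawing down to 1500 UMIs was computed as an exact expectation. Genes with a count of 0 keep the ratio with 0.5 CPM added, except where the text names a floor of 3 UMIs. Doublets were called with Scrublet in each library (scanpy 1.11.5) and kept. The computations used Python 3.11.15, numpy 2.4.6, scipy 1.17.1 and pandas 2.3.3, and were tested on simulated data.

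Genes named outside the lists had 50 CPM or more, UMIs in 10% or more of the cells, a level no lower than 0.25 of the highest gate's, and a ratio of like sign with cells weighted equally. The 10 largest and 10 smallest ratios were taken, or 5 and 5 for Havcr2 over Pdcd1 alone. For ratios within libraries the one nearer 0 of the 2 libraries was ranked. Mitochondrial, ribosomal, haemoglobin and immunoglobulin genes, Xist, Y-linked genes and unnamed gene models were left out. Positions are from GENCODE M21, where 30934 of 31053 gene IDs matched.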

Additional observations from a re-analysis of the deposited data

Results flagged for a closer look

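In 5 genes the ratio of SHP099 to control went one way in the cells with Pdcd1 or Havcr2 and the other way in the CD8 T cells with neither, each with an interval that left out 0. The difference between the gates was not tested. Areg, which encodes the growth factor amphiregulin, had a log2 ratio of 2.21 (1.31 to 3.19) in the former and -1.94 (-3.96 to -0.43) in the latter, and 31 of its 32 SHP099 UMIs came from 1 cell. Gzma had 47 UMIs in 3 control cells with Pdcd1 or Havcr2 and 0 in SHP099, a log2 ratio of -2.75 against a floor of 3 UMIs with an exact interval that ends at -2.39, while in the other cells its log2 ratio was 1.86 (1.19 to 2.59). Tuba1b, a tubulin gene that is higher in cycling cells, had 0.77 (0.20 to 1.34) and -0.67 (-1.38 to -0.01).

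The matrix genes Col3a1, from the tumour cell marker list, and Dcn, from the fibroblast list, were also flagged. They had log2 ratios of 1.01 (0.28 to 1.74) and 1.74 (0.56 to 3.02) in the cells with Pdcd1 or Havcr2, and -1.51 (-2.31 to -0.78) and -1.26 (-2.08 to -0.52) in the others. Single control cells with neither gene held 44 of 83 UMIs of Col3a1 and 46 of 70 of Dcn, and with each cell counted alike the ratios in the neither-gene cells were -0.52 and -0.03. In the cells with Pdcd1 or Havcr2 Col3a1 was near 0 once called doublets were removed, and without the highest cell of each library the ratios were 0.09 for Col3a1 and 1.00 for Dcn.

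Variable segments of the T cell receptor were outside the comparisons and gave 18 and 20 UMIs over 170 genes in these cells. Trav8-1, an alpha chain segment, had 10 UMIs in 6 SHP099 cells and 0 in control. It also had 5 UMIs in 3 SHP099 cells with neither gene and 9 in 7 dividing SHP099 cells, with 0 in both control groups. Trgv2, a gamma chain segment, went the other way, with 9 UMIs in 9 control cells and 1 UMI in 1 SHP099 cell. In the cells with neither gene Trgv2 had 7 UMIs in control and 6 in SHP099.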

How the results depend on the processing

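Of 1011 alternatives, 968 left a value within its counting error or, for counts of genes, within 1.5 times, 38 moved it and 5 turned its sign. Leaving out barcodes found in both libraries moved none of its 96 values, and the shares among all barcodes were then 1.81% and 0.795%. The control share among all barcodes was 1.47% with phagocyte and tumour sums at 0, and with 2 or more UMIs of Pdcd1 and Havcr2 the shares were 0.817% and 0.367%. The shares among CD8 T cells were 36.7% and 28.2% at 1500 UMIs and 27.2% and 19.2% at 1000 UMIs. With 2 or more UMIs the progenitor list's median was -0.19 for SHP099 over control and -0.96 over the neither-gene cells in control, and Ccr7 turned to 0.10. At a floor of 50 CPM, 312 genes (12.2%) were higher and 283 (11.1%) lower of 2556. With a total that left out ribosomal and mitochondrial genes, 1422 were higher and 1387 lower. That total raises every CPM, so these are counts over a larger set of genes past the 20 CPM floor. It shifts the log2 ratios themselves by 0.003. Without the cell that held most UMIs of the gene in each library, an alternative chosen after seeing the data like that on shared barcodes, Gzmb turned to -0.068 and Areg to -1.66. Col3a1 turned to -0.058 with called doublets removed and to -0.012 with each cell counted alike. The causes were not tested. The 203619 UMIs of the SHP099 cells limit genes at low levels. No paired analysis was possible because each group has 1 library.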
